A study of Mus musculus with 48 samples.

Results

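The 7 interferon-induced genes Cxcl9, Ifit1, Ifit3, Isg15, Irf7, Stat2 and Ifi27 were followed across 48 mouse livers. They were taken by symbol from the authors' table of 14251 genes, all 7 had a row there, and all 7 passed the filter on low counts that left 12688 genes to test. The samples were whole livers of male C57BL6J mice, each kept for 2 weeks on 1 of 4 treatments and sequenced as 1 library per mouse. Corticosterone, the main glucocorticoid of rodents, was given in the drinking water at 100 ug/ml, and the vehicle was water with 1% ethanol. The labels do not state whether the corticosterone water also held ethanol. Atglistatin, which inhibits the triglyceride lipase ATGL, was milled into Teklad 8640 chow at 571 mg/kg, and control-diet mice had no atglistatin. The groups were corticosterone with atglistatin (Cort ATGLi, 14 mice), corticosterone on the control diet (Cort CON, 14 mice), vehicle with atglistatin (EtOH ATGLi, 10 mice) and vehicle on the control diet (EtOH CON, 10 mice). No group carried an altered allele, and the labels call 1 Cort ATGLi mouse and 9 Cort CON mice diabetic and the other mice nondiabetic.

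Interferons are secreted proteins that warn cells of infection. Type I interferons act through a receptor that activates the kinases JAK1 and TYK2, and a complex of transcription factors that holds STAT2 and IRF9 then binds a DNA element called the interferon-stimulated response element. Interferon gamma, made mainly by T cells and natural killer cells, acts through its own receptor and a different DNA element. In the liver, hepatocytes, Kupffer cells (the resident macrophages) and other cells answer both signals, and glucocorticoids are known to damp many such inflammatory genes.

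The genes fall into 3 roles. Stat2 and Irf7 encode transcription factors of the pathway: STAT2 carries the type I signal to the nucleus, and IRF7 switches on type I interferon genes. Cxcl9 encodes a chemokine that draws T cells and is induced chiefly by interferon gamma. Ifit1, Ifit3, Isg15 and Ifi27 are induced by type I interferon: Ifit1 encodes a protein that binds foreign RNA and blocks its translation, Ifit3 a relative that in human cells partners it, Isg15 a ubiquitin-like tag that is joined to other proteins, and Ifi27 a small hydrophobic protein. In the GRCm38 annotation all 7 are protein-coding genes. Ifit3 (chr19:34583531-34588731) and Ifit1 (chr19:34640871-34650009) lie on the plus strand of chromosome 19, Stat2 (chr10:128270559-128292849) and Ifi27 (chr12:103434211-103440239) are also on the plus strand, and Cxcl9 (chr5:92321347-92328079), Isg15 (chr4:156199424-156200818) and Irf7 (chr7:141262706-141266481) are on the minus strand.

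Promoters of 300 bases, from 250 before to 50 after the transcription start, were read from RefSeq (GRCm38.p6) for the 6 members that have an entry there. They were searched on both strands for the core of the interferon-stimulated response element, the bases GAAA, any 2 bases and GAAA again (TTTC, any 2 bases and TTTC on the other strand). Stat2, Isg15, Ifit1 and Ifit3 held it, whereas Cxcl9 and Irf7 had no match in this window; over all 32851 promoters of this length, 3.44% held it. The 4 promoters with a match are shown because they carry the element that the type I signal is known to act on. Capitals mark the matches, and bases are written 5′ to 3′ along the gene.
Stat2 (chr10:128270248-128270547, plus strand): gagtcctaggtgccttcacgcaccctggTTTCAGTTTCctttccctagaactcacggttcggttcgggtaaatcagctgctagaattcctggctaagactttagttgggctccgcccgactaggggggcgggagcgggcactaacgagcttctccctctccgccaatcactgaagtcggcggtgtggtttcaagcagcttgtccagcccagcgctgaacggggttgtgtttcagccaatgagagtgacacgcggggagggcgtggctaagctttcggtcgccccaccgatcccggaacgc
Isg15 (chr4:156200769-156201068, minus strand): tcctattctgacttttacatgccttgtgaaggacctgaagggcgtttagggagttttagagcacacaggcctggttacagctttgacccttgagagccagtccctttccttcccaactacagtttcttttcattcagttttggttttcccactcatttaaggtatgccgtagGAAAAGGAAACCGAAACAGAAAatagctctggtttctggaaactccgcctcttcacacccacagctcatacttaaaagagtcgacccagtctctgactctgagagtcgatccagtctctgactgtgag
Ifit1 (chr19:34640639-34640938, plus strand): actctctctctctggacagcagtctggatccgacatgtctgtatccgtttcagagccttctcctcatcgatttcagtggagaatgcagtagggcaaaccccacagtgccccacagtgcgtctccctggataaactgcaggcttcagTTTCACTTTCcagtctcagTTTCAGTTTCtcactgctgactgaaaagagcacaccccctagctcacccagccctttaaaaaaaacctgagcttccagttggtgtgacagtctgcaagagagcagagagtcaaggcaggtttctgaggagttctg
Ifit3 (chr19:34583279-34583578, plus strand): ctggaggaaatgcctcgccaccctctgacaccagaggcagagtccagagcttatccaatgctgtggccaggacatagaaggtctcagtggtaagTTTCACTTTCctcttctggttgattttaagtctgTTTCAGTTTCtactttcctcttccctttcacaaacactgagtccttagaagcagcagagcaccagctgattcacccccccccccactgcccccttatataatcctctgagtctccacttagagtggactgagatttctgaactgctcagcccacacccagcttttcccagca
Ifit1 held 2 matches, at bases -104 to -95 and -85 to -76 from the start, and Ifit3 held the same 2 letter runs in the same order at -156 to -147 and -122 to -113. Isg15 held 3 matches that overlap one another between -78 and -57. Stat2 held 1 match, at -222 to -213. The same windows were searched for the interferon gamma element TTCNNNGAA, found in 8.3% of all promoters, and for the palindromic glucocorticoid response element (AGAACA, any 3 bases, TGTTCT), found in 0.00913%; none of the 6 promoters held either run of letters. A match describes letters only and says nothing of binding in these livers. Likewise, a missing match does not show that a gene lacks such an element, which may differ in letters or lie outside the window.

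Libraries held 7449109 to 21175603 counts, and levels are given as CPM, a gene's counts per 1000000 counts of the library after scaling between libraries. Fkbp5, a gene that glucocorticoids induce, averaged 192 ± 56.4 CPM in Cort ATGLi, 310 ± 91 CPM in Cort CON, 18.2 ± 11.7 CPM in EtOH ATGLi and 9.6 ± 3.82 CPM in EtOH CON livers (SD, n = 14, 14, 10 and 10). Every library was rich in hepatocyte markers, whose 9 genes summed to 73700 to 137000 CPM. One library stood apart for the interferon-induced genes: Cort ATGLi replicate 41 held the highest level of all 7 members among the 28 corticosterone libraries. It stood apart in many other genes too. Of 12688 genes tested, 2470 were above and 2394 below all 13 other Cort ATGLi mice. Results that rest on the Cort ATGLi group are therefore given with and without replicate 41.

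**Figure D1:**
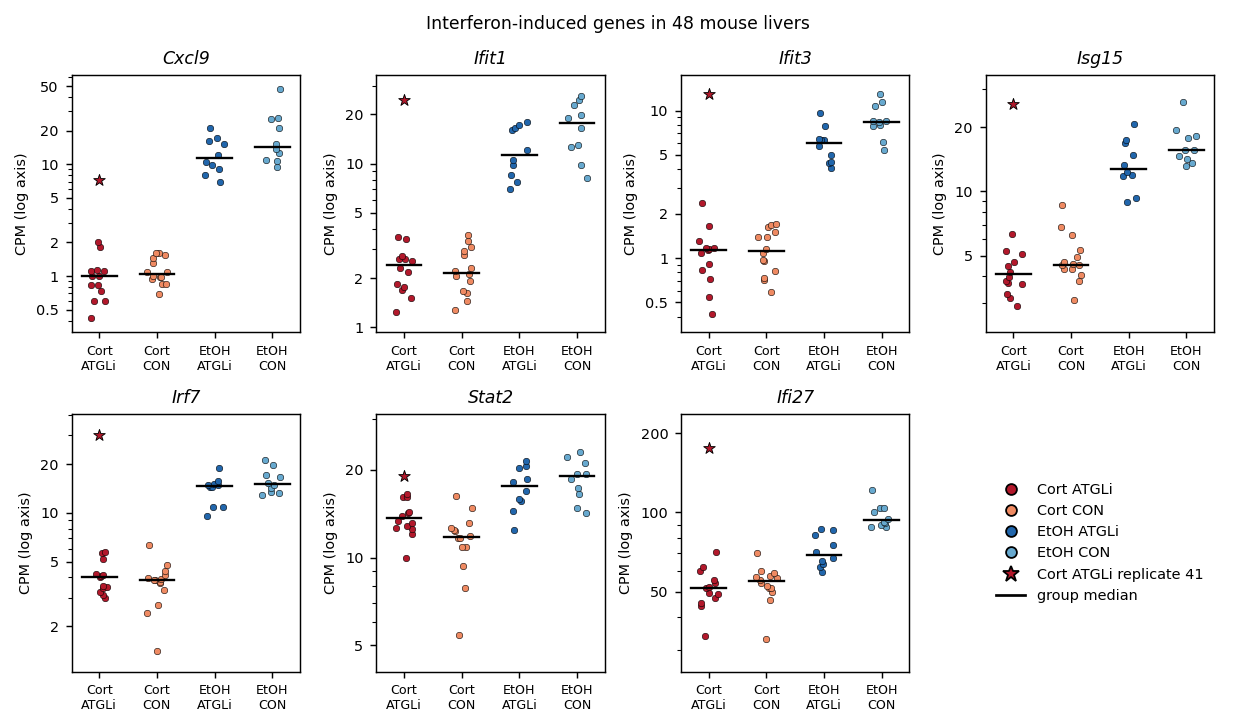
Level of each interferon-induced gene in each of 48 livers, in CPM on a log axis; points are mice, lines are group medians and the star is Cort ATGLi replicate 41. Apart from the star, corticosterone livers lie below every vehicle liver for Cxcl9, Ifit1, Ifit3, Isg15 and Irf7, and the groups overlap for Stat2.

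On the control diet, all 7 genes were lower in corticosterone livers. The falls were steepest for the chemokine Cxcl9 and the effectors Ifit3 and Ifit1, smaller for the factor Irf7 and for Isg15, and smallest for Ifi27 and Stat2. Each of the 7 passed the test (edgeR's quasi-likelihood test, adjusted p at most 0.05 by Benjamini-Hochberg over all 12688 genes), where 21.7% of all genes tested were called lower and 22.5% higher. The median log2 fold change of the 7 was -2.08, against 0.0106 over all genes. In 6 of the 7 the highest corticosterone mouse lay below the lowest vehicle mouse, which held for 3.43% of all genes.

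Among the transcription factor genes, Stat2 ranged over 5.41 to 16.3 CPM with a median of 11.8 CPM in Cort CON livers, and over 14.2 to 23.1 CPM with a median of 19 CPM in EtOH CON livers. The groups overlapped slightly, with 2 corticosterone mice inside the vehicle range, yet all 14 corticosterone mice lay below the vehicle mean. Its log2 fold change was -0.69 ± 0.11 (SE), a level 1.61-fold lower under corticosterone (edgeR adjusted p = 1.34e-06). Irf7 ranged over 1.4 to 6.31 CPM with a median of 3.86 CPM in Cort CON livers, and over 12.8 to 21.1 CPM with a median of 15 CPM in EtOH CON livers. The gap between the groups was wider than the whole spread of the corticosterone mice. Irf7 changed by -2.08 ± 0.26 on the log2 scale, 4.22-fold lower under corticosterone (edgeR adjusted p = 5.63e-09).

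Cxcl9 fell furthest. It ranged over 0.696 to 1.62 CPM with a median of 1.04 CPM in Cort CON livers, and over 9.54 to 47.1 CPM with a median of 14.4 CPM in EtOH CON livers. Corticosterone mice were tightly grouped (SD 0.309 CPM around a mean of 1.14 CPM), whereas vehicle mice were spread (SD 11.5 CPM around a mean of 19.2 CPM). The log2 fold change had a 95% interval of -4.67 to -3.42 (edgeR adjusted p = 4.55e-15). It was -3.8 without EtOH CON replicate 3, the highest mouse.

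The effector genes were all lower and none of their groups overlapped. Ifit1 ranged over 1.28 to 3.65 CPM with a median of 2.16 CPM in Cort CON livers, and over 8.21 to 26 CPM with a median of 17.7 CPM in EtOH CON livers; it was 7.35-fold lower under corticosterone (edgeR adjusted p = 7.08e-10). Ifit3 ranged over 0.589 to 1.71 CPM with a median of 1.11 CPM in Cort CON livers, and over 5.4 to 13 CPM with a median of 8.42 CPM in EtOH CON livers. The size of its change, -2.91 ± 0.34 on the log2 scale (edgeR adjusted p = 9.7e-10), lay beside that of Ifit1, at -2.88 ± 0.33. Of the 451 windows of 50 bases in the last 500 bases of Ifit3, 67 (14.9%) also occur in the near-identical gene Ifit3b. Reads from those windows cannot be assigned to 1 of the 2 genes, and the share of Ifit3 reads that fall there is not known. Ifit3b itself averaged 0.391 ± 0.261 CPM in Cort CON livers and 2.06 ± 0.522 CPM in EtOH CON livers (SD, n = 14 and 10).

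Isg15 ranged over 3.09 to 8.65 CPM with a median of 4.55 CPM in Cort CON livers, and over 13.1 to 26.1 CPM with a median of 15.7 CPM in EtOH CON livers. It was 3.38-fold lower under corticosterone, a log2 fold change of -1.76 ± 0.24 (edgeR adjusted p = 2.43e-08). Ifi27 ranged over 33 to 70.4 CPM with a median of 54.6 CPM in Cort CON livers, and over 87.9 to 122 CPM with a median of 93.4 CPM in EtOH CON livers. Although its groups did not overlap, its change was modest, 1.81-fold lower under corticosterone (edgeR adjusted p = 4.85e-06). The 95% interval of the Ifi27 log2 fold change, -1.15 to -0.56, lay wholly above those of Cxcl9, Ifit1, Ifit3, Isg15 and Irf7.

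The fall was also present in mice labelled nondiabetic. That label does not follow fed glucose in every mouse (glucose unit not given in the sources used here). Cort CON replicate 36, labelled nondiabetic, had a glucose of 242, where the other nondiabetic Cort CON mice ran from 131 to 145. Cort ATGLi replicate 26, labelled diabetic, had 212. With every library labelled diabetic left out, which leaves 5 Cort CON mice, all 7 genes were still called lower by edgeR, as were 15.3% of all genes in that fit, with log2 fold changes from -4.35 for Cxcl9 (adjusted p = 2.94e-08) to -0.59 for Stat2 (adjusted p = 0.00195). Within the Cort CON group the diabetic mice were also set against the nondiabetic mice. Ifit1 ranged over 1.28 to 2.75 CPM with a median of 2.07 CPM in the 9 diabetic mice, and over 1.66 to 3.65 CPM with a median of 3.09 CPM in the 5 nondiabetic mice, and the labels overlapped. Its log2 fold change was -0.60 ± 0.21, with an unadjusted edgeR p of 0.0107 and an adjusted p of 0.992. With mice left out in turn, that change ran from -0.741 without replicate 36 to -0.504 without replicate 33. Of the 7 genes, 0 passed the edgeR test and Ifit1 alone was under an unadjusted p of 0.05, as were 448 of 12003 genes tested (3.73%), and 0% of genes were called. DESeq2 and limma voom each called 0 of the 7 as well. The intervals remain wide: that of Cxcl9, the other gene with a change over 0.4, ran from -0.05 to 0.88 on the log2 scale.

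On the atglistatin diet, 6 of the 7 genes were lower in corticosterone livers, and Ifi27 did not pass the test. The share of all genes called lower was 17.7%, and the median log2 fold change of the 7 was -1.25, against 0.0169 over all genes. The groups overlapped for all 7, where 1.46% of all genes were lower without overlap, and Cort ATGLi replicate 41 lay inside or above the vehicle range in every one. Without that mouse all 7 were lower (18.6% of all genes), their median was -1.78, and 5 of the 7 did not overlap (3.02% of genes).

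Cxcl9 ranged over 0.418 to 7.28 CPM with a median of 1.01 CPM in Cort ATGLi livers, and over 6.91 to 21.3 CPM with a median of 11.3 CPM in EtOH ATGLi livers. Its second highest Cort ATGLi mouse stood at 2.02 CPM, far under the vehicle range, so the overlap came from replicate 41. The log2 fold change was -3.11 ± 0.30 (edgeR adjusted p = 7.85e-12), and -3.67 ± 0.24 without replicate 41. Irf7 ranged over 2.98 to 30.2 CPM with a median of 4.04 CPM in Cort ATGLi livers, and over 9.53 to 18.8 CPM with a median of 14.7 CPM in EtOH ATGLi livers. It changed by -1.23 ± 0.25 on the log2 scale (edgeR adjusted p = 0.000109), and by -1.78 ± 0.14 without replicate 41, where the highest remaining mouse was at 5.74 CPM. Stat2 ranged over 10 to 19 CPM with a median of 13.7 CPM in Cort ATGLi livers, and over 12.4 to 21.5 CPM with a median of 17.6 CPM in EtOH ATGLi livers. Most of its values overlapped, with 12 of 14 corticosterone mice inside the vehicle range, and its log2 fold change was -0.31 ± 0.11 (edgeR adjusted p = 0.0237), and -0.36 ± 0.11 without replicate 41 (edgeR adjusted p = 0.00854). Its call was lost without the libraries that held over 20 CPM of the pancreatic gene Cpa1 (-0.28, edgeR adjusted p = 0.0722), and over all alternatives run the adjusted p ranged from 0.00257 to 0.718. The highest came from a fit of only the 2 pairs of mice that share a replicate number, with that number as a block.

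The effectors showed the same pull of a single mouse. Ifit1 ranged over 1.24 to 24.4 CPM with a median of 2.41 CPM in Cort ATGLi livers, and over 6.98 to 18.1 CPM with a median of 11.3 CPM in EtOH ATGLi livers; its log2 fold change was -1.65 ± 0.32 (edgeR adjusted p = 4.34e-05), and -2.41 ± 0.20 without replicate 41. Ifit3 ranged over 0.418 to 13 CPM with a median of 1.14 CPM in Cort ATGLi livers, and over 4.06 to 9.62 CPM with a median of 6.04 CPM in EtOH ATGLi livers; its log2 fold change was -1.6 ± 0.32 (edgeR adjusted p = 8.18e-05), and -2.43 ± 0.19 without replicate 41. Isg15 ranged over 2.92 to 25.7 CPM with a median of 4.09 CPM in Cort ATGLi livers, and over 8.91 to 20.7 CPM with a median of 12.8 CPM in EtOH ATGLi livers; its log2 fold change was -1.25 ± 0.23 (edgeR adjusted p = 2.55e-05), and -1.7 ± 0.14 without replicate 41. In all 3 genes, 13 of 14 corticosterone mice lay below the vehicle mean and the exception was replicate 41.

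Ifi27 was the gene whose call turned on that mouse. It ranged over 33.9 to 176 CPM with a median of 51.7 CPM in Cort ATGLi livers, and over 59.1 to 86.5 CPM with a median of 68.9 CPM in EtOH ATGLi livers. With all mice, its log2 fold change was -0.24 ± 0.15 and missed the threshold (edgeR adjusted p = 0.204). Without replicate 41 it was -0.48 ± 0.09 (edgeR adjusted p = 3.49e-05), with the highest remaining mouse at 70.7 CPM and the groups still overlapping. Limma voom with sample weights, using all mice, called it lower too (-0.44, adjusted p = 0.000129), and over all alternatives run the adjusted p ranged from 3.49e-05 to 0.35. The highest again came from the fit of only the 2 same-numbered pairs.

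**Figure D2:**
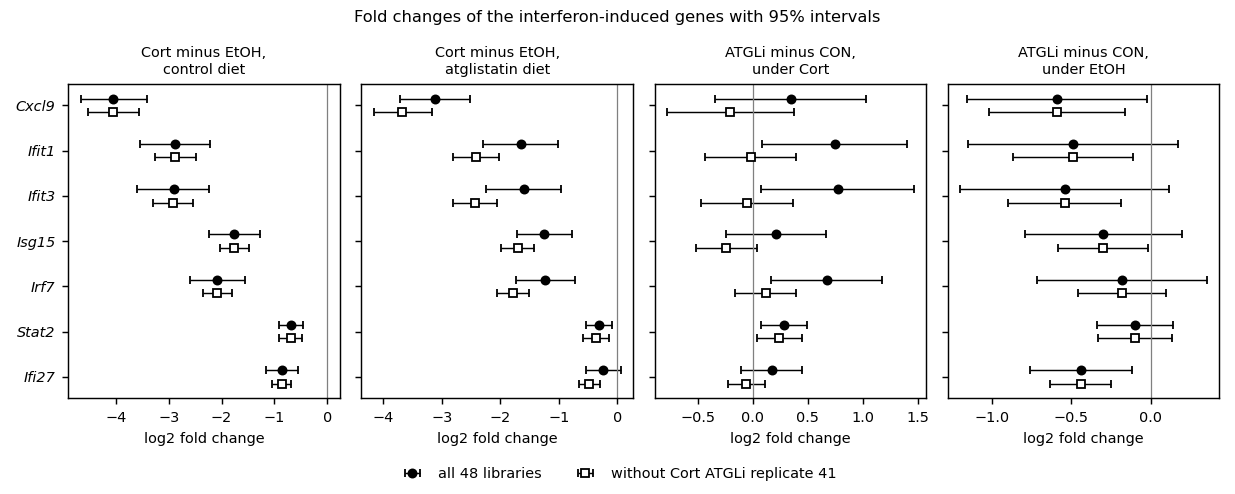
Log2 fold change of each interferon-induced gene in 4 comparisons, with 95% intervals from edgeR; filled circles use all 48 libraries and open squares leave out Cort ATGLi replicate 41. The control-diet corticosterone values barely move, whereas 5 of 7 values of atglistatin under corticosterone change sign.

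Replicate 41 held 30.2 CPM of Irf7, 7.41 times the mean of the other 13 Cort ATGLi mice, and 24.4 CPM of Ifit1, 10.6 times theirs. Its ratio to the other 13 was 11.7 for Ifit3, 7.17 for Cxcl9, 6.12 for Isg15, 3.39 for Ifi27 and 1.39 for Stat2. In Ifit3, Irf7 and Ifi27 it lay above all 20 vehicle mice, whereas its Cxcl9, at 7.28 CPM, was above only 1 of the 20. The labels call it nondiabetic and give it an insulin value of 2.19, the lowest of the corticosterone mice, whose group ranges were 2.19 to 38 in Cort ATGLi and 9.31 to 39.8 in Cort CON (insulin unit not given in the sources used here). Fixed lists of other genes were also read in this mouse: 44 of 47 other type I interferon-induced effectors were higher there than in all 13 other Cort ATGLi mice (93.6%, against 19.5% of all genes tested), as were 10 of 16 interferon gamma-induced genes. Not every interferon list was high. Of 12 genes of MHC class I presentation, 6 were above and 1 below all 13, and their sum of 3650 CPM ranked 13 among the 14. Of 6 other interferon regulatory factor genes, 1 was above and 2 below, and their sum ranked 11. Rsad2, which encodes an antiviral enzyme of the type I response, stood at 57.6 CPM in replicate 41. The 14 Cort ATGLi mice, replicate 41 among them, averaged 7.23 CPM.

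Cell type markers were read in the same mouse. The 14 Kupffer cell and macrophage markers summed to 535 CPM in replicate 41, the highest of the 14 Cort ATGLi mice, whose median was 138 CPM, and 12 of the 14 were above all the other 13. The scavenger receptor gene Marco reached 77.4 CPM there. The 12 lymphocyte markers in the table summed to 4.1 CPM, which ranked 11 among the 14, and the 3 neutrophil markers to 4.29 CPM, which ranked 2. Of other liver cells, 5 of 8 stellate cell markers were above all the other 13, with a sum of 386 CPM that ranked 1. The 10 sinusoidal endothelial markers summed to 252 CPM, which also ranked 1, but differed among themselves: 3 were above and 2 below all the other 13. Lyve1 held 82.4 CPM there and Kdr 27.7 CPM, where the 14 Cort ATGLi mice averaged 27.4 and 42.1 CPM. Of all 12688 genes tested, 19.5% were above all the other 13, and 2394 were below. Of 9 hepatocyte markers, 1 was above and 4 were below all the other 13. The part of these cell populations in the interferon-induced genes of this mouse was not tested.

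Across the whole study, markers of immune cells moved with corticosterone as the interferon-induced genes did. On the control diet 12 of 14 Kupffer cell and macrophage markers, 5 of 6 lymphocyte markers tested and all 3 neutrophil markers tested were lower, with median log2 fold changes of -1.3, -2.5 and -1.78. Over all genes tested in that comparison, 21.7% were called lower and 22.5% higher. The Kupffer cell and macrophage markers summed to 97.1 to 535 CPM in Cort ATGLi, 119 to 265 CPM in Cort CON, 267 to 437 CPM in EtOH ATGLi and 323 to 553 CPM in EtOH CON livers, and none of them was at 0 in any library. The lymphocyte markers summed to 1.92 to 7 CPM in Cort ATGLi, 2.74 to 14.1 CPM in Cort CON, 13.4 to 24.9 CPM in EtOH ATGLi and 16.8 to 38.2 CPM in EtOH CON livers, and the B cell gene Ms4a1 was at 0 in 19 libraries and the T cell gene Cd3d in 6. Of other liver cells on the control diet, 6 of 8 stellate cell markers were lower and 1 higher (median -0.8), and 4 of 10 sinusoidal endothelial markers were lower. Among 9 hepatocyte markers 3 were higher and 2 lower, near the shares over all genes. In whole liver, fewer cells of a type and less RNA per cell cannot be told apart, and the part of cell numbers in the fall of the 7 genes was not tested.

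**Figure D3:**
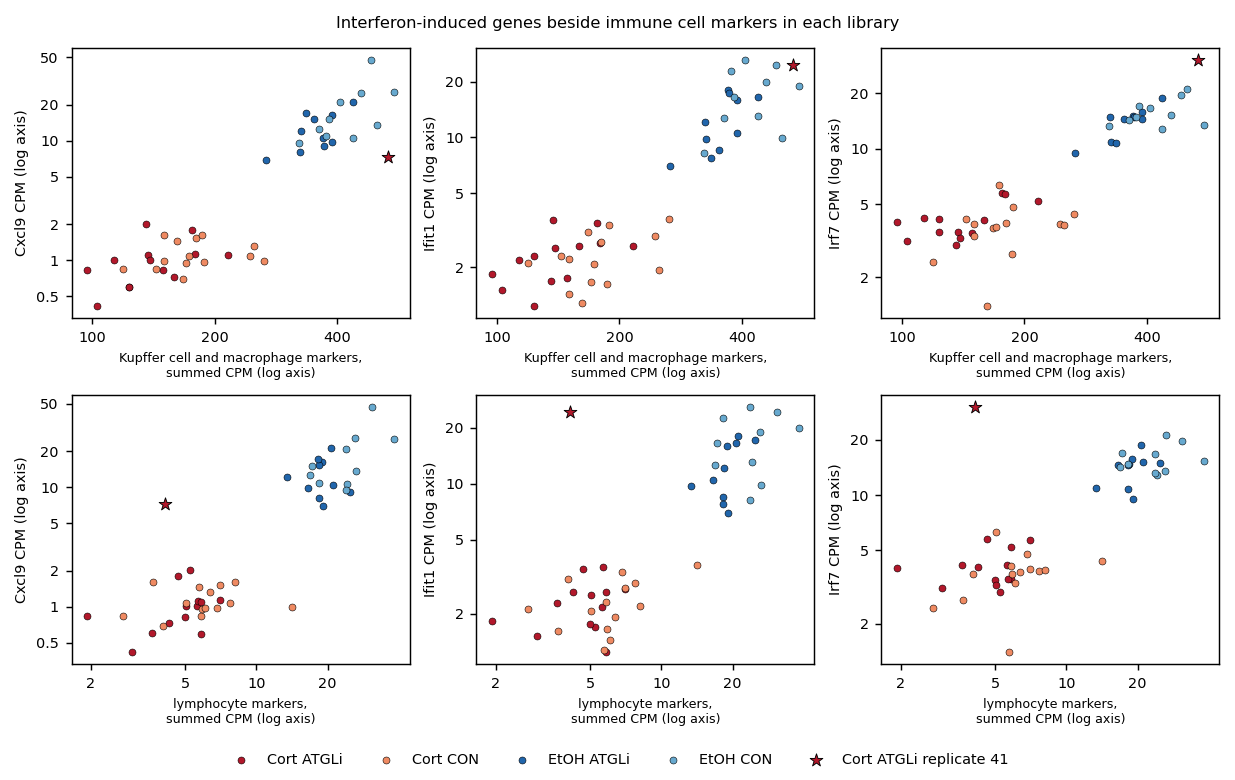
Cxcl9, Ifit1 and Irf7 levels (CPM, log axis) against the summed level of Kupffer cell and macrophage markers (upper row) or lymphocyte markers (lower row), in CPM on a log axis; points are livers and the star is Cort ATGLi replicate 41. Corticosterone livers sit low on both axes, and the star sits with the vehicle livers for macrophage markers, at 535 CPM, but with the corticosterone livers for lymphocyte markers, at 4.1 CPM.

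Genes of the same pathway, from lists kept apart from the 7, followed them to different degrees on the control diet, where 21.7% of all genes tested were called lower and 22.5% higher. Among the 5 interferon receptor chains tested, 3 were lower, including Ifngr1 at -0.74 ± 0.10 on the log2 scale (edgeR adjusted p = 4.54e-08), a chain of the interferon gamma receptor. Ifnar1, a chain of the type I receptor, did not pass (-0.2, edgeR adjusted p = 0.165). Downstream, 5 of 6 signalling genes were lower. They included Irf9 (-1.46 ± 0.13, edgeR adjusted p = 4.52e-13), which encodes a partner of STAT2. The kinase genes differed, with Tyk2 lower by -0.74 ± 0.07 and Jak1 at -0.03 ± 0.07, which did not pass.

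Of 14 nucleic acid sensors and adaptors, 7 were lower, 2 were higher and 5 did not pass. Zbp1, a sensor of unusual nucleic acids, was the lowest at -1.9 ± 0.24 (edgeR adjusted p = 8.54e-09), and Ticam1, an adaptor of Toll-like receptor signalling, was the highest at 0.39 ± 0.14 (edgeR adjusted p = 0.0177). Of the 6 other interferon regulatory factor genes, 4 were lower, and Irf2, a known antagonist of Irf1, was higher at 0.48 ± 0.11 (edgeR adjusted p = 0.000364). All 4 genes that attach or remove the Isg15 tag were lower, from Uba7, the activating enzyme, at -1.56 ± 0.17 to Ube2l6, the conjugating enzyme, at -0.47 ± 0.17 (edgeR adjusted p = 0.0198). Of 5 feedback inhibitors of the pathway, 2 were lower and 3 did not pass.

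Among 47 other type I interferon-induced effectors, 38 were lower, 2 were higher and 7 did not pass, with a median log2 fold change of -1.19. Ifi44 was the lowest at -2.84 ± 0.38, and Ifitm2, which encodes a membrane protein that hinders viral entry, was the highest at 0.48 ± 0.11 (edgeR adjusted p = 0.000321). Of 16 interferon gamma-induced genes, 15 were lower, with a median of -1.78. Cxcl10, a chemokine of the same receptor as Cxcl9, was the lowest at -4.88 ± 0.71 (edgeR adjusted p = 1.51e-07), and averaged 0.239 ± 0.165 CPM in Cort CON livers and 7.01 ± 11.5 CPM in EtOH CON livers (SD, n = 14 and 10). Of 12 genes of MHC class I presentation, which interferons raise, 9 were lower, with a smaller median of -0.4. None of the 11 listed interferon genes themselves was found by symbol in the authors' table, so they could not be analysed here.

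On the atglistatin diet 35 of the 47 type I effectors and 14 of the 16 interferon gamma-induced genes were lower, with medians of -0.94 and -1.28. Without replicate 41 these counts were 39 of 47 and 15 of 16, with medians of -1.12 and -1.62. Over all genes tested, 17.7% were called lower with all mice and 18.6% without replicate 41. Of the 4 Isg15-tagging genes, 2 were lower with all mice and 4 without replicate 41. Cxcl10 was not called with all mice (-1.15, edgeR adjusted p = 0.135) and was called lower without replicate 41 (-3.3 ± 0.51, edgeR adjusted p = 6.52e-07).

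**Figure D4:**
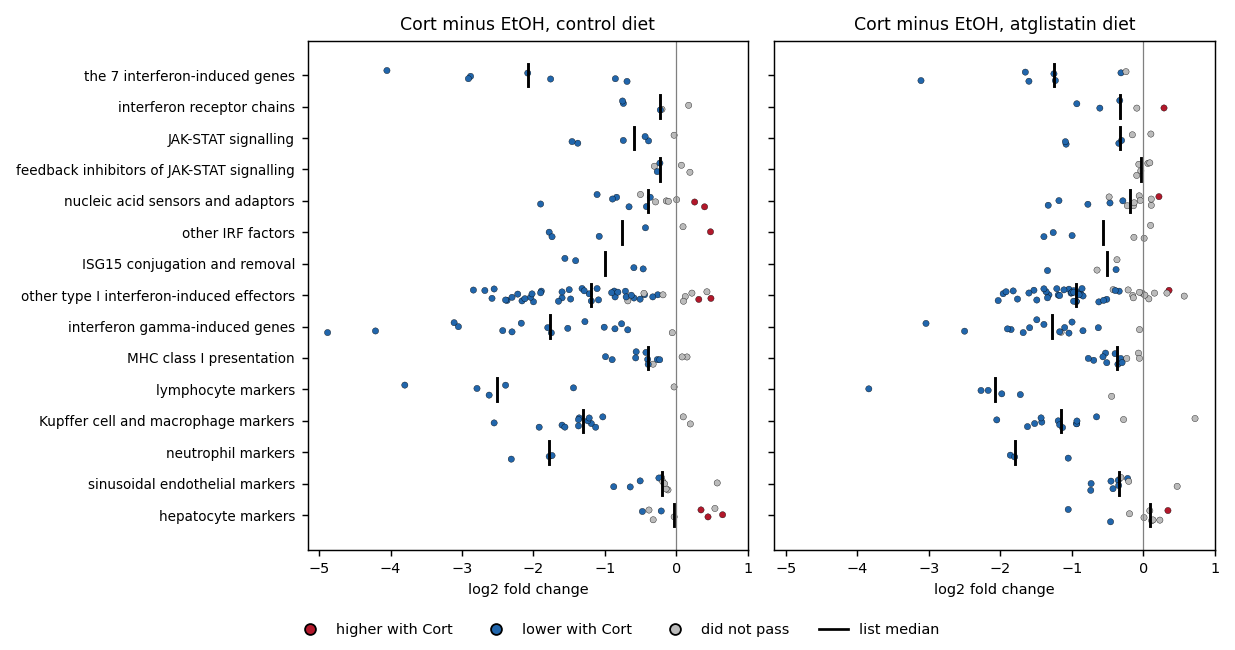
Log2 fold changes under corticosterone on each diet for the 7 interferon-induced genes, 9 lists of interferon pathway genes and 5 lists of cell type markers, all 48 libraries; each point is a gene, coloured by whether it passed the test, and bars are list medians. The medians on the control diet are -2.08 for the 7 genes, -1.19 for other type I effectors and -1.78 for interferon gamma-induced genes.

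Atglistatin changed none of the 7 genes past the threshold under corticosterone. All 7 had a positive log2 fold change, from 0.17 for Ifi27 to 0.77 for Ifit3, and 4 had an unadjusted edgeR p under 0.05, as did 24.5% of all genes. Their adjusted p ran from 0.0673 to 0.625, where 11.7% of all genes were called. Irf7 had 5.94 ± 7.04 CPM in Cort ATGLi and 3.75 ± 1.14 CPM in Cort CON livers (SD, n = 14 each). The medians lay closer, at 4.04 CPM in Cort ATGLi and 3.86 CPM in Cort CON livers, and 6 of 14 Cort ATGLi mice lay below the Cort CON mean. Its log2 fold change was 0.67 ± 0.25 (edgeR adjusted p = 0.0734), DESeq2, which called 5.54% of all genes higher, called it (0.66, adjusted p = 0.0463), and so did edgeR without Cort CON replicate 50 (0.74, adjusted p = 0.0438); over all alternatives run, its adjusted p ranged from 0.0438 to 0.647. Without replicate 41 the Irf7 change was 0.12 ± 0.14, and Cxcl9 (-0.2), Ifit1 (-0.02), Ifit3 (-0.05), Isg15 (-0.24) and Ifi27 (-0.06) turned negative, so that 2 of the 7 were positive and their median was -0.05. None of the 7 was called then either by edgeR, 1 was under an unadjusted p of 0.05 (25.8% of all genes), and 13.1% of all genes were called. Limma voom called 0 of the 7. Of the 47 other type I effectors, 3 were higher and 2 lower with all mice, and 1 was higher and 8 lower without replicate 41. Of the 14 Kupffer cell and macrophage markers, 0 were called with all mice and 5 were lower without replicate 41.

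Stat2 was the member least touched by that mouse. It ranged over 10 to 19 CPM with a median of 13.7 CPM in Cort ATGLi livers, and over 5.41 to 16.3 CPM with a median of 11.8 CPM in Cort CON livers. Although the groups overlapped, only 1 of 14 Cort ATGLi mice lay below the Cort CON mean. The log2 fold change was 0.28 ± 0.10 (edgeR adjusted p = 0.0673), and 0.24 ± 0.10 without replicate 41 (edgeR adjusted p = 0.119). It passed when Cort ATGLi replicate 23, Cort CON replicate 32 or Cort CON replicate 33 was left out (edgeR adjusted p of 0.0386, 0.0457 and 0.0298). Over all alternatives run the adjusted p ranged from 0.0298 to 0.626, the highest without the libraries labelled diabetic. That label is unevenly shared between the groups compared here, with 1 Cort ATGLi and 9 Cort CON mice called diabetic.

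Under vehicle, atglistatin likewise gave 0 calls among the 7 with edgeR, where 3.13% of all genes were called, and 2 of them were at an unadjusted p under 0.05, as were 16.1% of all genes. All 7 log2 fold changes were negative, from -0.59 for Cxcl9 to -0.1 for Stat2. Limma voom with sample weights called 4 of the 7 lower, and 3.96% of all genes: Ifit3 (-0.68, adjusted p = 0.00174), Ifi27 (-0.42, adjusted p = 0.00663), Ifit1 (-0.65, adjusted p = 0.0105) and Cxcl9 (-0.63, adjusted p = 0.0333). DESeq2 called 0 of the 7, and over all alternatives run the adjusted p of Ifit3, Ifit1 and Cxcl9 reached up to 0.645, 0.662 and 0.629. That of Ifit1 came from a fit of only the 4 pairs of vehicle mice that share a replicate number, with that number as a block. Among the lists, 3 of 47 other type I effectors were lower and 0 of 16 interferon gamma-induced genes passed.

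Ifi27 separated the vehicle groups most clearly. It ranged over 59.1 to 86.5 CPM with a median of 68.9 CPM in EtOH ATGLi livers, and over 87.9 to 122 CPM with a median of 93.4 CPM in EtOH CON livers. The groups did not overlap, which held for 0.0867% of all genes in that direction, and the levels averaged 71.7 ± 10.1 and 97.3 ± 10.6 CPM in EtOH ATGLi and EtOH CON livers (SD, n = 10 each). With all 48 libraries in 1 fit its log2 fold change was -0.44 ± 0.16 and was not called (edgeR adjusted p = 0.131). It was called when only the 20 vehicle libraries were fitted (-0.44, edgeR adjusted p = 0.00336, with 2.05% of all genes called lower) and when replicate 41, a corticosterone mouse that enters through the shared spread, was left out (-0.44 ± 0.10, edgeR adjusted p = 0.0035), where 2.29% of all genes were called lower. Over all alternatives run, its adjusted p ranged from 0.00336 to 0.464, the highest in the fit of only the 4 same-numbered pairs.

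The difference between the corticosterone effects on the 2 diets was tested as an interaction. For 0 of the 7 genes did it pass the edgeR threshold (adjusted p 0.152 to 0.606), where 1.43% of all genes were called, and 6 of the 7 were under an unadjusted p of 0.05, as were 11.8% of all genes. All 7 interaction values were positive, from 0.38 for Stat2 to 1.31 for Ifit3. Without replicate 41 they ran from 0.06 to 0.49, with 0 called, against 1.87% of all genes, and 2 of the 7 under an unadjusted p of 0.05, against 12.4% of all genes: Ifi27 (0.38 ± 0.13, p = 0.00435, adjusted p = 0.121) and Stat2 (0.34 ± 0.15, p = 0.0342, adjusted p = 0.336), both from edgeR. DESeq2 and limma voom each called 0 of the 7. Of the 47 other type I effectors, 0 passed. Cxcl10, outside the 7, passed the interaction test with all mice (3.74 ± 0.97, edgeR adjusted p = 0.0363) and did not without replicate 41 (1.59 ± 0.80, edgeR adjusted p = 0.406).

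How the 7 genes varied among mice of a group was read from the correlation of log2 CPM after each group's mean was taken out. Over 48 libraries Pearson's r of the 21 pairs ran from 0.08 to 0.86 with a median of 0.66, and all 21 were above 0. Without replicate 41 it ran from -0.09 to 0.68 with a median of 0.29 and 18 pairs above 0, and in the 20 vehicle libraries from -0.27 to 0.8 with a median of 0.3 and 15 pairs above 0. The pair of Ifit1 and Ifit3 stood at 0.85 with all libraries, 0.68 without replicate 41 and 0.8 in the 20 vehicle libraries, whereas Irf7 and Ifi27 stood at 0.86, 0.66 and 0.4. Stat2 and Irf7 stood at -0.03 without replicate 41 and -0.27 in the vehicle libraries. Of all tested genes, the most alike over 48 libraries was Rsad2 for Ifit1 (0.86), Ifit3 (0.85) and Isg15 (0.8), Igtp for Cxcl9 (0.82), Ifi27 for Irf7 (0.86) and Gripap1 for Stat2 (0.68). Without replicate 41 the most alike gene was Irgm2 for Ifit1 (0.7), Ifit1 for Ifit3 (0.68), Npc2 for Isg15 (0.64), Igtp for Cxcl9 (0.73), Rtp4 for Irf7 (0.66), Gripap1 for Stat2 (0.69) and Arpc1b for Ifi27 (0.78). These values share libraries and depth and are a description of the mice.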

How the data were processed

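Per the labels' protocols, RNA came from powdered frozen liver and QuantSeq libraries, which read the 3′ ends of transcripts, were sequenced with 50-base forward reads; the submitters' processing notes name GRCm38, R 3.6 and DESeq2 1.24.0, while the sources used here give no aligner, counter or strand setting. The deposited counts per gene are whole numbers and were the basis of all tests. The authors' normalized signal table equals those counts divided by a size factor per library and gave 12491 gene symbols, with 1728 more from the reference table of gene names.

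Counts were filtered with filterByExpr (minimum count 10, minimum total 15), scaled by TMM and fitted with edgeR 4.0.16 in R 4.3.3, 1 mean per group over 48 libraries, with Benjamini-Hochberg adjustment over 12688 genes. CPM use TMM-scaled library sizes, and residual correlations a prior count of 2. The labels for diabetes were tested in the 14 Cort CON libraries over 12003 genes. Each library has its own glucose and insulin value, so p-values measure spread between mice. DESeq2 1.42.0, limma 3.58.1 voom and other alternatives were tried, and the tests were checked on simulated data. Within groups, counts of no 2 libraries agreed within sampling noise.

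The members and lists were chosen with earlier results of these data known, and 1 gene of the signalling list is not reported here by name. All 7 members are named in each comparison. Of a list, its first 6 measured genes in fixed order and its highest and lowest may be named. The most alike gene is that with the highest r, and Rsad2 is named as such a gene. Ms4a1 falls outside these rules and is named as the lymphocyte marker at 0 in the most libraries. Irf7 overlaps Phrf1 on the other strand, so their reads cannot be told apart without strand. The leave-out of replicate 41 for lists and correlations was added after seeing the data. Cpa1, a pancreatic gene, exceeded 20 CPM in 6 libraries.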

Additional observations from a re-analysis of the deposited data

Results flagged for a closer look

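Levels of the 7 genes were searched for single mice far from the rest of their group, in groups of 4 to 10 mice. Cort CON mice entered split by the diabetic label. Of 28 combinations of gene and group, 5 had such a mouse. Chance gives about 1 in 20 for a combination, but genes read in the same mice are not independent. The Cort ATGLi group of 14 mice was larger than that limit, so replicate 41 was outside this search. EtOH CON replicate 3 held 47.1 CPM of Cxcl9, where the next mouse held 25.8 CPM. The same mouse held 26.1 CPM of Isg15, where the next held 19.3 CPM. Ifi27 reached 122 CPM in EtOH CON replicate 10, above the next at 104 CPM. Among the 9 diabetic Cort CON mice, replicate 50 held 8.65 CPM of Isg15, where the next held 5.3 CPM, and replicate 34 held 5.41 CPM of Stat2, under the next lowest at 9.39 CPM. No cause of these values was tested.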

How the results depend on the processing

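All 7 genes stayed lower on the control diet under every alternative run. Counts of the 7 called moved for atglistatin under vehicle (1 with the compared groups alone, 4 with limma voom, 0 to 1 with a mouse left out) and for atglistatin under corticosterone (1 with DESeq2, 0 to 1 with a mouse left out). Counts of all genes moved without diabetic-labelled libraries (3614 for corticosterone on the control diet, 609 for atglistatin under corticosterone, 76 for the interaction), without libraries over 20 CPM of Cpa1 (207 for atglistatin under vehicle, 64 for the interaction) and with voom (899 and 359 for the same 2); the cause was not tested. Of 343 values of single genes under alternatives that drop no single mouse, 326 kept direction and call, 6 lost the call, 7 gained it and 4 turned sign; of 1778 with a mouse left out, 1757 kept both, 6 gained the call and 15 turned sign.

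Signs turned for atglistatin under corticosterone with voom in Cxcl9 (-0.15), Isg15 (-0.19) and Ifi27 (-0.031). With mice left out in turn, those values ran from -0.204 to 0.416 for Cxcl9, -0.0182 to 0.817 for Ifit1, -0.0545 to 0.85 for Ifit3, -0.241 to 0.29 for Isg15 and -0.0586 to 0.207 for Ifi27, each lowest without replicate 41. For the diabetic label they ran from -0.131 to 0.12 for Ifit3, -0.202 to 0.0612 for Isg15 and -0.0859 to 0.0424 for Ifi27, and Ifit3 was 0.00852 without the Cpa1 libraries.

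Replicate numbers shared between groups showed no sign of pairing mice: same-numbered deviations correlated at -0.117 to 0.0357 over 4 pairs under vehicle and -0.0435 to -0.0177 over 2 pairs on the atglistatin diet. Unlike numbers among the same vehicle libraries gave -0.179 to 0.253, and so few pairs cannot decide whether the numbers pair mice. In those libraries a fit with the replicate block called 4 genes for atglistatin under vehicle (0 without the block), and 56 genes and 3 of the 7 for corticosterone on the atglistatin diet (300 genes and 4 of the 7 without the block). No paired analysis was possible for the other comparisons because the groups compared share no replicate number. Depth limits Cxcl9, Ifit1 and Ifit3 most, whose lowest libraries held 8, 16 and 7 counts.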
